A study of Mus musculus with 8 samples.

Results

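miR-101a and miR-101b are the 2 mouse microRNAs of the miR-101 family on an Agilent mouse miRNA array that was hybridised with liver RNA of db/db and db/+ mice. They were taken by name, as the rows that the scanner files assign to mmu-miR-101a or mmu-miR-101b and do not mark as control spots, and were 2 of 567 mouse miRNAs on the array. Of these 567 miRNAs, 127 were tested between the strains, both members among them. The study compared 4 livers of obese, diabetic db/db mice with 4 livers of nondiabetic db/+ mice, which carry 1 copy of the same allele. The labels give the db/db mice the C57BL/KsJ background and name no treatment or age for the animals of either strain. Each of the 8 arrays carried the RNA of 1 animal. The db allele removes the long, signalling form of the leptin receptor throughout the body, so its loss in the liver and the obesity and diabetes of the whole animal cannot be told apart.

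MicroRNAs are short RNAs that guide Argonaute proteins to messenger RNAs, mostly through pairing of the seed, the bases just behind the 5′ end, and lower the stability or translation of those messengers. The miR-101 family is best known for repressing Ezh2, the histone methyltransferase of Polycomb repressive complex PRC2, and its loss has been described in liver cancer. Each member is cut from its own hairpin precursor, made from a separate gene on a separate chromosome.

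The mature sequences show how alike the 2 members are, and where their seeds lie. They are printed 5′ to 3′ from RefSeq on mouse build GRCm38.p6, with bases 2 to 8, the seed, in capitals.
miR-101a-3p: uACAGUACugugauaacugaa
miR-101b-3p: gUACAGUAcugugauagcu
miR-101a-3p lies at chr4:101346957-101346977 on the minus strand and has 21 bases. miR-101b-3p lies at chr19:29135338-29135356 on the plus strand and has 19 bases in this table. The miR-101b entry starts 1 base further upstream, so the seeds read by position differ, ACAGUAC in miR-101a and UACAGUA in miR-101b, although the letters around them are the same. Among 1679 distinct mature mouse miRNAs in the table, no other holds either of these seeds.

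Set on the stretch of the Mir101b hairpin that it matches, bases 61 to 81, miR-101a was identical at 20 of 21 positions. The single difference is A16G, counted from 1 at the 5′ end of miR-101a with the base of miR-101a first, and it stands in capitals here.
miR-101a-3p: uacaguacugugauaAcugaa
Mir101b hairpin, bases 61 to 81: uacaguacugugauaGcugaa
The mature miR-101b entry covers 18 bases of this hairpin stretch, 17 of them identical to miR-101a, and starts 1 base further upstream. The mature members thus also differ at both ends. As they are otherwise so alike, part of the signal of one member's probes can come from the other member. The size of that share was not tested, and the values given are signals of probes named for a member.

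The hairpins are printed to show the precursors that the 2 members are cut from, with the 3p arm, the mature miRNA, in capitals.
Mir101a: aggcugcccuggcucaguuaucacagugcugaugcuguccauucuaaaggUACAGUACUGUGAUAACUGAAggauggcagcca
Mir101b: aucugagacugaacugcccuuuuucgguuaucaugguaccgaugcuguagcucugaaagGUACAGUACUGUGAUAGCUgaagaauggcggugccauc
Mir101a occupies chr4:101346945-101347027 on the minus strand, 83 bases, within the span of the long non-coding RNA gene E130102H24Rik. Mir101b occupies chr19:29135279-29135375 on the plus strand, 97 bases, within the span of Rcl1, a protein-coding gene for a factor of ribosomal RNA processing. Whether these positions are exonic or intronic was not analysed here.

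The probe signals are averages of background-subtracted spot intensities, divided by a factor for the array's brightness and given on the log2 scale; a difference of 1 is a doubling. The arrays differed in brightness: the factor ranged from 0.847 to 1.06 in db/db and from 0.210 to 5.63 in db/+. db/+ replicate 1 was the brightest array, with 255 miRNAs detected, and db/+ replicate 4 the dimmest, with 91, while the db/db arrays had between 133 and 166. All 8 arrays lay on 1 slide, with db/db in row 1 and db/+ in row 2, so the row of the slide and the strain cannot be told apart. miR-122, the miRNA that defines hepatocytes, averaged 15.48 ± 0.06 in db/db and 15.38 ± 0.70 in db/+ (SD, n = 4 each), and was detected on all 8 arrays. The precision of all comparisons is limited by the 4 arrays per strain.

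Signal of the probes named for each member was detected in every liver, and its mean was lower in db/db than in db/+ livers for both members. For miR-101a the difference was 1.47-fold and for miR-101b it was 1.15-fold. Neither passed the test across all miRNAs. Both were detected on all 8 arrays, and none of their spots was saturated.

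The log2 scaled signal of miR-101a was 8.27, 7.95, 7.93 and 7.67 in db/db replicates 1 to 4, and 8.73, 8.58, 8.85 and 7.87 in db/+ replicates 1 to 4. The db/db values all lay below the values of db/+ replicates 1, 2 and 3, and the strains overlapped through db/+ replicate 4, the dimmest array. The means were 7.96 ± 0.25 in db/db and 8.51 ± 0.44 in db/+ (SD, n = 4 each), a log2 fold change of -0.55 ± 0.23 (SE; 95% interval -1.06 to -0.04). The p of limma was 0.0378 before and 0.160 after Benjamini-Hochberg adjustment over the 127 miRNAs, rank 30 by p.

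The log2 scaled signal of miR-101b was 8.49, 8.20, 8.26 and 7.92 in db/db replicates 1 to 4, and 8.78, 8.37, 8.80 and 7.75 in db/+ replicates 1 to 4. Here db/+ replicate 4 was the lowest of all arrays and db/+ replicate 2 lay within the range of db/db, so the strains overlapped more than for miR-101a. The means were 8.22 ± 0.23 in db/db and 8.43 ± 0.50 in db/+ (SD, n = 4 each), a log2 fold change of -0.21 ± 0.25 (SE; 95% interval -0.76 to 0.34) with an adjusted p of limma of 0.602. The interval reaches from a fall larger than the point estimate of miR-101a to a rise, so the arrays neither show a change of miR-101b nor that it kept its level.

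**Figure D1:**
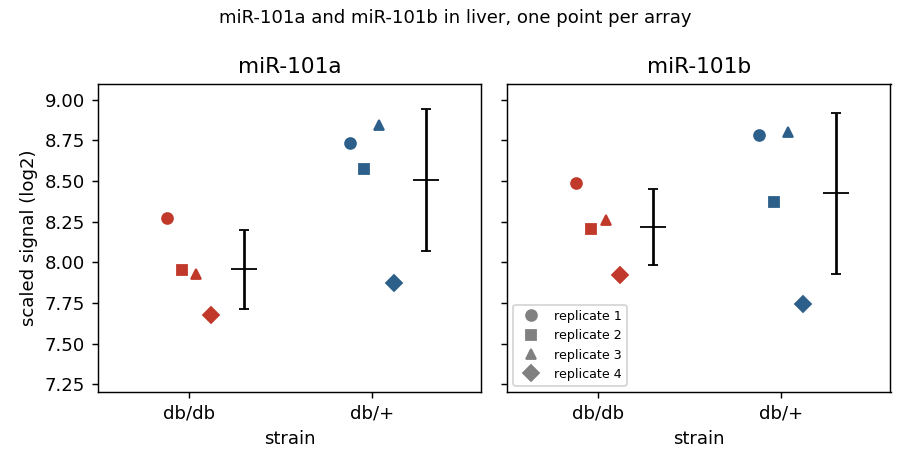
Log2 scaled signal (y axis) of miR-101a and miR-101b, 1 panel each, with 1 point per array for db/db (left) and db/+ (right), marker shape giving the replicate number and the bar with whiskers the mean ± SD of 4 arrays. In both panels db/+ replicate 4 lies below the other db/+ arrays, at 7.87 for miR-101a and 7.75 for miR-101b, within or below the db/db points.

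Read against the whole array, 0 of 2 members passed limma at an adjusted p under 0.05, where 15.0 percent of the 127 tested miRNAs did (19 miRNAs, of which 12 were higher and 7, or 5.51 percent, lower in db/db). At an unadjusted p under 0.05 it was 1 of 2 members, miR-101a, against 26.0 percent of all tested miRNAs. In 0 of 2 members did the strains not overlap, against 22.8 percent of the tested miRNAs. SAM, the test that the series names, also called 0 of 2 members at a false discovery rate under 5%, against 13.4 percent of all tested miRNAs. SAM's count moves with its fudge factor, a constant added to each spread, and stood at 17 to 38 miRNAs over the percentiles tried for it. Neither member was called at any of these percentiles.

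The median log2 fold change of the 127 tested miRNAs was 0.15, so both members lay on the lower side of the array as a whole. Relative to that median, miR-101a was at -0.70 and miR-101b at -0.36. With arrays scaled by the 75th percentile of the miRNAs detected on all arrays, the median of all tested miRNAs was 0.02, and the log2 fold changes became -0.68 for miR-101a (adjusted p of limma 0.118) and -0.33 for miR-101b (adjusted p of limma 0.541). Distances from the median were the same as before, as this change of scaling shifts all miRNAs alike. With normexp background correction the median was -0.13, and the distances were -0.33 for miR-101a and -0.08 for miR-101b.

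**Figure D2:**
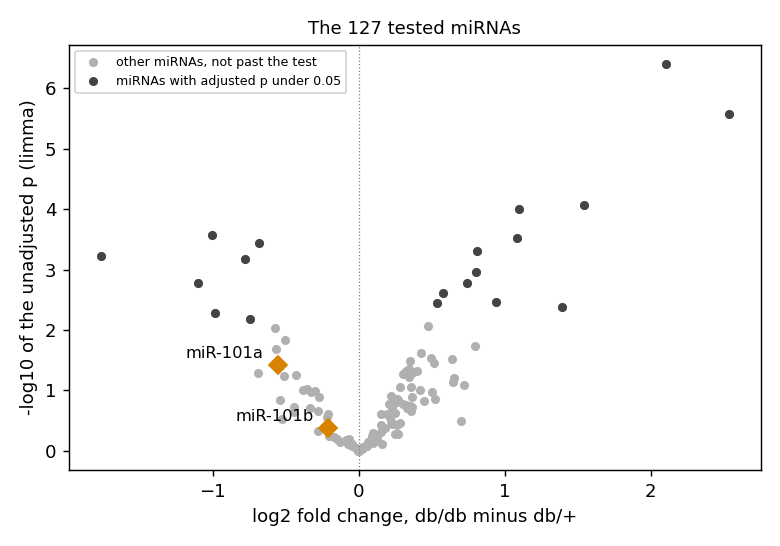
Log2 fold change, db/db minus db/+ (x axis), against -log10 of limma's unadjusted p (y axis) for the 127 tested miRNAs, with the 19 past an adjusted p of 0.05 in dark grey and miR-101a and miR-101b labelled. miR-101a at -0.55 lies below the dark points in p, and miR-101b at -0.21 lies near the bottom of the plot.

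The dimmest array decided the call of miR-101a. Without db/+ replicate 4, its log2 fold change was -0.76 with an adjusted p of limma of 0.0137, and that of miR-101b was -0.43 with an adjusted p of 0.136. Leaving out any other single array left miR-101a between -0.66 and -0.44 with adjusted p-values of limma from 0.119 to 0.350. With array weights, which let limma count the noisier arrays less, both members passed, miR-101a at -0.80 (adjusted p 0.0063) and miR-101b at -0.51 (adjusted p 0.0481), as did 42 miRNAs in all. The weights were 0.21 and 0.35 for db/+ replicates 4 and 2, against 1.54 and 1.21 for db/+ replicates 1 and 3. In that fit db/+ thus rested mainly on replicates 1 and 3, the db/+ arrays with the highest signal of both members. On db/+ replicate 4 the unscaled signal was 49.3 for miR-101a and 45.1 for miR-101b, against 2396 and 2482 on db/+ replicate 1. The unscaled signals in db/db lay between 217 and 263 for miR-101a and between 257 and 314 for miR-101b.

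The slide had 4 columns, each with 1 db/db array in row 1 and the db/+ array given the same replicate number in row 2. Within columns 1 to 4, db/db minus db/+ was -0.46, -0.62, -0.92 and -0.20 for miR-101a. For miR-101b it was -0.30, -0.17, -0.54 and 0.18. miR-101a was thus lower in db/db in all 4 columns, and miR-101b in all but column 4, which holds db/+ replicate 4. With the column as a block, limma gave adjusted p-values of 0.0788 for miR-101a and 0.448 for miR-101b.

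Each member was read by 2 probes of 10 spots each, which differ in how many bases of the miRNA they cover. The probes of a member share target and array and are not replicates. They gave nearly the same difference within each member, and a larger one for both miR-101a probes than for both miR-101b probes. None of the 4 probes passed limma at an adjusted p under 0.05 over 271 probes, against 9.23 percent of all probes, and 1 of 4 had an unadjusted p under 0.05, against 24.0 percent of all probes. The strains overlapped on all 4 probes, whereas they did not on 16.6 percent of all probes.

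The miR-101a probes lie, in the coordinates of the files on build mm9, at chr4:101019562-101019581 (A_54_P2268, 20 bases) and chr4:101019562-101019582 (A_54_P4365, 21 bases). A_54_P2268 averaged 7.85 ± 0.26 in db/db and 8.39 ± 0.49 in db/+, a log2 fold change of -0.53 ± 0.26 (SE, adjusted p of limma 0.253). A_54_P4365 averaged 8.05 ± 0.23 in db/db and 8.62 ± 0.39 in db/+, a log2 fold change of -0.57 ± 0.21 (SE, p of limma 0.0323, adjusted p 0.153). As in the miRNA average, db/+ replicate 4 was the only db/+ array inside the db/db range, at 7.68 on A_54_P2268 and 8.05 on A_54_P4365.

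The miR-101b probes lie at chr19:29209833-29209849 (A_54_P2593, 17 bases) and chr19:29209832-29209849 (A_54_P2594, 18 bases) on build mm9. A_54_P2593 averaged 7.09 ± 0.27 in db/db and 7.30 ± 0.53 in db/+, a log2 fold change of -0.21 ± 0.27 (SE, adjusted p of limma 0.683). A_54_P2594 averaged 8.84 ± 0.22 in db/db and 9.05 ± 0.49 in db/+, a log2 fold change of -0.21 ± 0.25 (SE, adjusted p of limma 0.653). On db/+ replicate 4 only 1 of 10 spots of A_54_P2593 was well above background, whereas for every other combination of these probes and arrays it was 10 of 10. The spots of a probe varied by 11.3% to 25.7% (coefficient of variation) on db/+ replicate 4, against 1.37% to 7.41% on the other arrays.

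**Figure D3:**
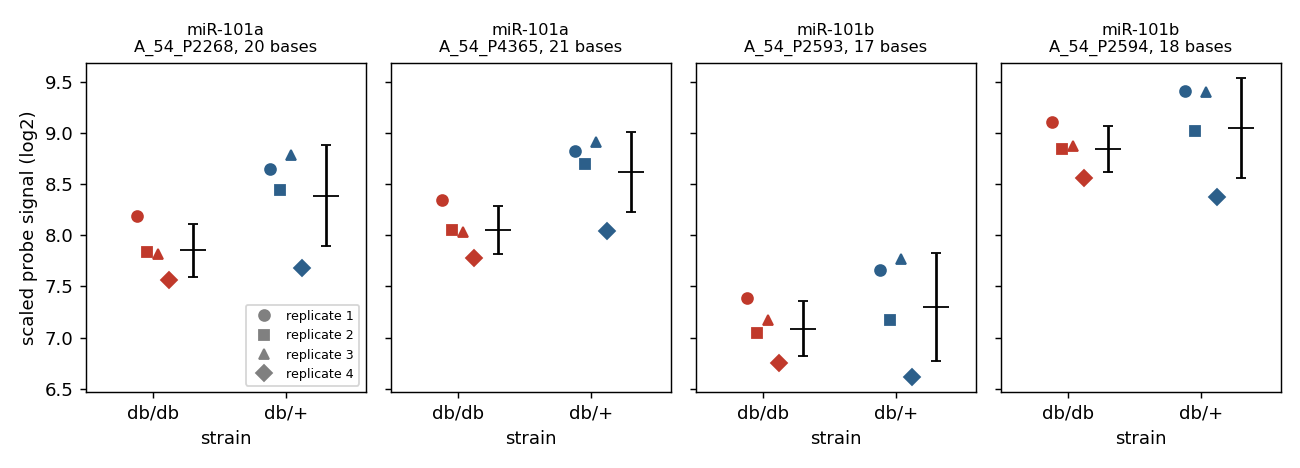
Log2 scaled probe signal (y axis) of the 2 miR-101a probes and the 2 miR-101b probes, 1 panel each, with 1 point per array for db/db (left) and db/+ (right), marker shape giving the replicate number and the bar with whiskers the mean ± SD of 4 arrays. The 4 probes order the arrays in much the same way, and the log2 fold change is -0.53 and -0.57 for the miR-101a probes and -0.21 for each miR-101b probe. Heights of different probes are not comparable with each other.

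Because both members were read on the same array, their difference within an array is unaffected by any single scale factor per array. This difference was lower in every db/db liver than in every db/+ liver. Its level rests on the probes' brightness and says nothing of which member is more abundant, so only its change between strains was compared.

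miR-101a minus miR-101b was -0.22, -0.25, -0.33 and -0.25 on the log2 scale in db/db replicates 1 to 4, and -0.05, 0.20, 0.04 and 0.13 in db/+ replicates 1 to 4. The strains did not overlap, and a gap of 0.17 separated the highest db/db from the lowest db/+ array. Among all pairs of tested miRNAs, the strains likewise did not overlap in 23.7 percent, in 23.4 percent of the pairs detected on all 8 arrays, and in 9.73 percent of the pairs in which neither miRNA passed limma. The means were -0.26 ± 0.05 in db/db and 0.08 ± 0.11 in db/+ (SD, n = 4 each), a difference of -0.34, or 0.788-fold (exact permutation test, two-sided, p = 0.0286, the smallest that 4 against 4 arrays allow). In 57.8 percent of all pairs of tested miRNAs the strain difference was at least that large. Such a separation is thus not particular to miR-101a and miR-101b.

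Both the brightest and the dimmest db/+ array had a higher difference than any db/db array. db/+ replicate 1, with a factor of 5.63, and db/+ replicate 4, with a factor of 0.210, had differences of -0.05 and 0.13, where the highest db/db value was -0.22. Within slide columns 1 to 4, the difference in db/db minus that in db/+ was -0.17, -0.46, -0.38 and -0.38. In the authors' deposited table of scores the strains overlapped in this difference through db/+ replicate 4 (-0.0506 in score units, exact permutation p = 0.143). Quantile normalization and cyclic loess, which change values by more than 1 factor per array, gave -0.44 and -0.34 (exact permutation p = 0.0286 each; both chosen after seeing the data).

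**Figure D4:**
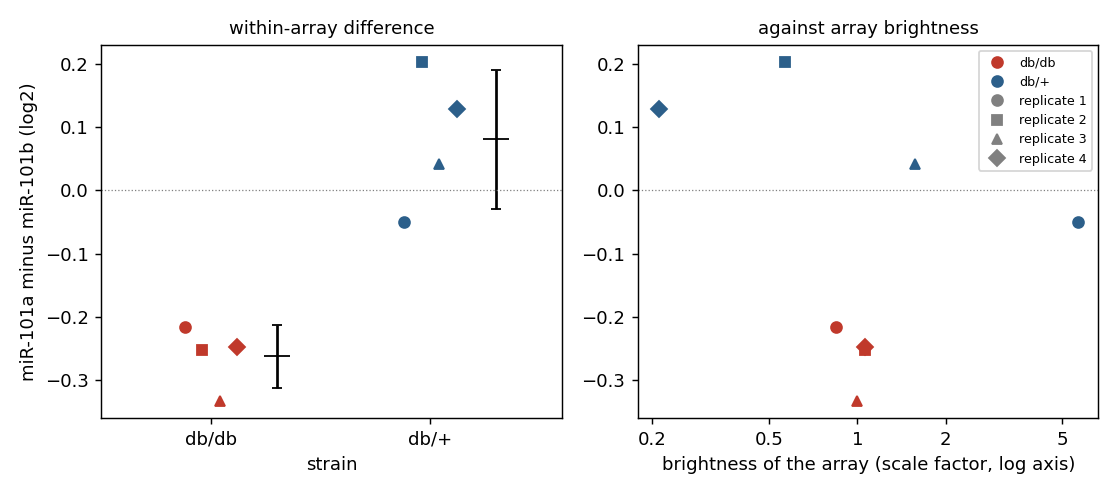
miR-101a minus miR-101b on the log2 scale, per array, by strain with db/db left of db/+ (left panel, bar and whiskers mean ± SD of 4 arrays) and against the array's scale factor on a log axis (right panel). The 4 db/db points lie between -0.33 and -0.22 and the 4 db/+ points between -0.05 and 0.20, over the whole range of brightness in db/+.

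The 4 probes form 6 pairs. The 4 pairs that set a miR-101a probe against a miR-101b probe had strain differences of -0.32, -0.33, -0.35 and -0.36. The strains overlapped in none of them. Each had an exact permutation p of 0.0286, the smallest that 4 against 4 arrays allow. After Benjamini-Hochberg adjustment over the 6 pairs it was 0.0429, a value set by 4 of the 6 having this smallest p. These 4 pairs divide the difference of miR-101a and miR-101b over the same probes and arrays. They are therefore not separate support for it. The pair of miR-101a probes differed between strains by 0.03 (exact permutation p = 0.6) and the pair of miR-101b probes by -0.0081 (exact permutation p = 0.886). The strains thus differed in the pairs across the miRNAs and mixed in the pairs within one miRNA. Over all tested miRNAs, pairs of probes of the same miRNA had no overlap of strains in 2.98 percent of pairs. For pairs of probes of different miRNAs such a share was not computed. Between whole miRNAs, the strains did not overlap in 23.7 percent of all tested pairs, so a separation across miRNAs is not particular to these probes.

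**Figure D5:**
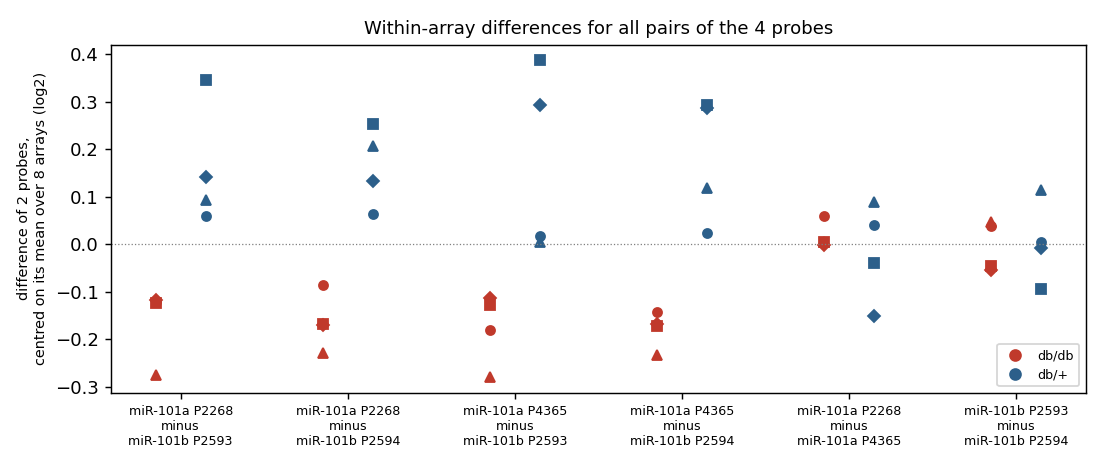
Within-array differences (log2, centred on the mean over 8 arrays) for the 6 pairs of the 4 probes, with 1 point per array, db/db left of db/+ in each pair. In the 4 pairs across the 2 miRNAs all db/db points lie below all db/+ points, whereas the strains mix in both pairs of the same miRNA.

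Neither the passenger strand nor the seed relatives entered the test. miR-101a*, the other arm of the miR-101a hairpin, had 4 probes and 20 spots per array, none of which was well above background on any of the 8 arrays. Of the miRNAs that share bases 2 to 7 with a member, the array held 1 for each. They are shown with bases 2 to 8 in capitals, because they differ from the member within the seed at the last of these bases.
miR-144-3p: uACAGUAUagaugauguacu
miR-582-5p: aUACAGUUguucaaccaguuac
miR-144, an erythroid miRNA that matches miR-101a at bases 2 to 7, lies at chr11:78073047-78073066 on the plus strand of GRCm38.p6. It was detected on 1 of 4 db/db and 3 of 4 db/+ arrays and was not tested. On db/+ replicates 1 and 3, with scale factors of 5.63 and 1.58, 20 of its 20 spots were well above background. It was 10 of 20 on db/db replicate 3 and 0 to 3 of 20 on the other arrays. As the db/+ arrays differed most in brightness, these counts were not read as a strain difference. miR-582-5p, which matches miR-101b at bases 2 to 7, lies at chr13:109324753-109324774 on the plus strand and was detected on none of the 8 arrays.

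Other miRNAs followed the members from array to array. Likeness was measured as the mean absolute difference of log2 profiles over the 8 arrays, each profile centred on its mean, so that 0 means the same profile. For miR-101a the nearest of 126 others was miR-20b at 0.161, followed by miR-101b at 0.172, miR-29b at 0.173 and miR-19a at 0.194, with a median over the others of 0.495. For miR-101b the nearest was miR-30e at 0.138, followed by miR-20b at 0.170, miR-101a at 0.172 and miR-19a at 0.201, with a median over the others of 0.448.

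None of these neighbours passed the test. The log2 fold change was -0.28 for miR-20b (adjusted p of limma 0.393), -0.69 for miR-29b (adjusted p of limma 0.185), -0.45 for miR-19a (adjusted p of limma 0.353) and -0.09 for miR-30e (adjusted p of limma 0.796). miR-20b and miR-19a belong to the miR-17 group of clusters, known for promoting cell growth, and miR-29b is known for repressing collagen genes. All profiles share the same 8 arrays and their scaling. miR-20b and miR-19a entered the test only because they were detected on all 4 db/db arrays, against 3 of 4 db/+ arrays. Their profiles therefore include a db/+ array on which they were not detected.

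Other miRNAs reported to repress Ezh2 had differences of mostly positive sign, none of them past the test. Of a list of 6 such miRNAs, 5 were tested and 0 passed limma in either direction. All 5 had a log2 fold change above 0, with a median of 0.20 beside 0.15 over all tested miRNAs, but 3 of the 5 did with quantile normalization or normexp background correction. miR-214 was at 0.64 (adjusted p of limma 0.143), let-7a at 0.30 (0.187), miR-26b at 0.20 (0.348) and miR-98 at 0.15 (0.411). miR-138 was not detected on any array. At an unadjusted p of limma under 0.05 it was 1 of the 5, miR-214, where 26.0 percent of all tested miRNAs had such a p. miR-214 entered the test only because it was detected on all 4 db/db arrays, against 3 of 4 db/+ arrays. Its values therefore do not speak for the list.

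Of 9 miRNAs abundant in hepatocytes, 1 fell and 0 rose in db/db livers, beside 5.51 percent lower and 15.0 percent called in either direction over all tested miRNAs. The one that fell was miR-21, which is also made in leukocytes and stellate cells, with 12.95 ± 0.09 in db/db and 13.73 ± 0.25 in db/+ (SD, n = 4 each) and a log2 fold change of -0.78 (adjusted p of limma 0.0085). Its difference was -0.29 with quantile normalization (adjusted p of limma 0.308) and it also missed the threshold with the 75th percentile over all miRNAs (-0.76, adjusted p of limma 0.0641). The median of the list was 0.10, beside 0.15 over all tested miRNAs, and -0.03 with the 75th percentile over miRNAs detected on all arrays. With normexp background correction it was 0.35 beside -0.13 over all, and with raw median intensity 0.37 beside 0.02.

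Some leukocyte markers were lower in db/db livers. All 7 leukocyte miRNAs on the list were on the array and 4 were tested. Of these 4, 2 fell, beside 5.51 percent lower and 15.0 percent called in either direction over all tested miRNAs. The log2 fold change was -1.10 for miR-142-3p (adjusted p of limma 0.0164) and -0.74 for miR-223, a myeloid miRNA (adjusted p of limma 0.0434). The other 2 tested did not pass, miR-342-3p at -0.54 (adjusted p of limma 0.321) and miR-146a at -0.04 (adjusted p of limma 0.909). miR-146a entered the test only because it was detected on all 4 db/db arrays, against 3 of 4 db/+ arrays. Without db/+ replicate 4, the array on which miR-101a's call turned, miR-142-3p was at -1.25 (adjusted p of limma 0.0114) and miR-223 at -0.56 (adjusted p of limma 0.0607). In that setting 3 of the 4 tested miRNAs had a negative and 1 a positive log2 fold change, and 1 passed. With normexp background correction, miR-142-3p and miR-223 both missed the threshold (adjusted p of limma 0.152 and 0.271). They also missed it with raw median intensity (0.453 and 0.543), as did miR-223 with the 75th percentile over all miRNAs (0.0946). The summed scaled signal of the 7 miRNAs was 321 to 420 in db/db and 514 to 761 in db/+, with no overlap. Among single tested miRNAs the strains did not overlap in 22.8 percent. The brightest of the 7 were miR-223, miR-342-3p and miR-142-3p. As these include both called miRNAs, the sum largely repeats their values and is not separate support for the list. miR-150, a lymphocyte miRNA, averaged 2.20 on the log2 scale with an SD of 0 in both strains, the value of the floor. Its detection on none of the db/db arrays and 1 of the db/+ arrays was therefore not read as a strain difference. The 5 bile duct miRNAs had sums of 76.2 to 104 in db/db and 62.8 to 68.8 in db/+. Of these, miR-200a and miR-200b entered the test only because they were detected on all 4 db/db arrays, against 3 of 4 db/+ arrays, so the log2 fold change of 0.81 for miR-200b (adjusted p of limma 0.0079) does not speak for the list. With normexp background correction it was -0.12 (adjusted p of limma 0.872). The 3 untested ones averaged 2.32 for miR-141, 2.37 for miR-200c and 4.02 for miR-429 in db/db, against 2.54, 2.57 and 3.77 in db/+. In whole liver, fewer cells of a type and less of a miRNA per cell cannot be told apart. The part of these cell types in the values of miR-101a and miR-101b was not tested.

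The other cell type lists had no member past the test. The sums overlapped between strains for endothelial miRNAs (1676 to 2085 in db/db, 1488 to 2172 in db/+), erythroid miRNAs (1247 to 2236 in db/db, 819 to 1996 in db/+) and miRNAs of stellate and smooth muscle cells (89.8 to 117 in db/db, 69.1 to 100.5 in db/+). Of these lists 2, 1 and 3 miRNAs were tested. The 3 hepatocyte miRNAs, miR-122, miR-192 and miR-194, were all tested, and none passed.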

How the data were processed

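Liver RNA of 4 db/db and 4 db/+ mice, 100 ng each, was labelled with Cy3 and hybridised to 1-colour Agilent arrays, per the labels' protocols. Spot intensity values came from Agilent Feature Extraction 9.5.3.1 files, per the file headers (the series text names 9.3.5), background-subtracted but not scaled between arrays. Detection and outlier flags are 0 or 1, per the file headers. A deposited file of the whole series repeats the raw median intensity. The authors deposited a log score for 139 miRNAs, whose base is not given in the sources used here. Probe positions use mm9, per the file headers.

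Outlier spots (3.42% to 4.84% per array) were left out, spots averaged per probe and probes per miRNA. Each array was scaled to a common median of the 89 miRNAs found on every array, and values were floored at 4.59 and put on the log2 scale. The package data.table (version 1.17.8) read the files. The 127 miRNAs that either strain showed on each of its 4 arrays went into limma 3.58.1 (R 4.3.3), with Benjamini-Hochberg adjustment. SAM used all 70 label permutations. Within-array differences were put to exact permutation tests. On 50 simulated data sets of 127 miRNAs, limma called 83.0% of changes of 1 on the log2 scale and 98.8% of changes of 2, and 3.54% of its calls were false. The simulated arrays were independent, with the same SD in both strains for each miRNA, and so lacked the uneven db/+ arrays. Changes smaller than 1, such as those of the members, were not simulated, so these rates do not apply to them. Alternatives covered scaling, background, floor, filter, array weights, slide column and single arrays. miR-101a and miR-101b, their relatives by seed, the 3 nearest profiles and list members past the test are named, with up to 4 of the Ezh2 list by smallest p. Members and lists were chosen with earlier results of these data known. Replicates are separate animals, per the series text. Figures were drawn with matplotlib 3.10.9.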

Additional observations from a re-analysis of the deposited data

How the results depend on the processing

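Both members kept a negative log2 fold change in the 22 of 29 alternatives that could move it; the other 7 changed the floor, the filter, the test or the block and left it as it was. miR-101a passed limma in 3 of them: with array weights (-0.80, adjusted p 0.0063), without db/+ replicate 4 (-0.76) and without the brightest and the dimmest db/+ array (-0.75, adjusted p 0.0437). miR-101b passed in 1, with array weights (-0.51, adjusted p 0.0481). Leaving out single arrays gave -0.76 to -0.44 for miR-101a and -0.43 to -0.08 for miR-101b. Over all alternatives adjusted p-values of limma ran from 0.0063 to 0.993 for miR-101a and from 0.0481 to 0.993 for miR-101b. The 19 calls became 0 without scaling (1 at an unadjusted p under 0.05 in limma), 2 with normexp, 1 with raw median intensity, 3 with the authors' scores, 12 with these scores without db/+ replicate 4 (chosen after seeing the data), 4 without the filter on detection, 42 with array weights and 10 to 21 without single arrays, lowest without db/db replicate 2. The split of higher to lower calls was 12 to 7, against 6 to 8 and 9 to 8 with the 75th percentile over miRNAs detected on all arrays and with quantile normalization, and 10 to 11 with cyclic loess. The within-array difference no longer passed with the authors' scores (-0.0506 in their units, exact permutation p = 0.143) or without the brightest and the dimmest db/+ array (-0.39, exact permutation p = 0.0667, the smallest 4 against 2 allow; chosen after seeing the data), where the smaller number of arrays sets the limit. Without single arrays it ran from -0.39 to -0.30. Each miR-101a probe passed without db/+ replicate 4 (-0.77 for A_54_P2268 and -0.76 for A_54_P4365). The cause of these changes was not tested otherwise. Only replicate numbers 3 and 4 are in the titles of both strains. With the replicate block the 4 arrays gave 8 calls, -0.56 for miR-101a (adjusted p of limma 0.509) and -0.18 for miR-101b (adjusted p of limma 0.843). Same-numbered arrays correlated at 0.036 and 0.31 in their deviations, and differently numbered ones at -0.21 and -0.21. The numbers were not taken as pairs in the main fit. As slide columns hold arrays of the same number, the column block is the same pairing and not a separate check. Signal over background limits db/+ replicate 4 most, where 91 miRNAs were detected.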

Other observations

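The authors' deposited scores and the scanner files disagreed on db/+ replicate 4. In the authors' deposited table of scores, miR-101a minus miR-101b was -0.039, -0.071, -0.097 and -0.058 in db/db replicates 1 to 4, and -0.097 on db/+ replicate 4, while the scanner files gave 0.13 on the log2 scale there, above all db/db arrays. On the other arrays the sign of the difference was the same in both sources, 7 of 8 in all. Without db/+ replicate 4 the scores gave a strain difference of -0.078 with the strains apart (exact permutation p = 0.0286, chosen after seeing the data).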
